A study of Homo sapiens with 2 samples.

Results

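The transcripts described here are those of the cyclins, the cyclin-dependent kinases (CDKs), the CDK inhibitors, and the phosphatases and kinases that switch CDKs on and off. The 50 genes were taken from a list by name, with every probe set of the array whose annotation gives exactly 1 gene symbol on that list. This gave 131 probe sets for 49 of the 50 genes, among 19775 genes on the array as a whole. CDKN2C had no such probe set and was not analysed here.

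RNA came from CL1-5, an established and highly invasive human lung adenocarcinoma cell line, grown in culture. The treated culture received 0.11 µM analogue 3 for 24 h, and the control culture received the solvent DMSO for the same time. Analogue 3 is an iodo-, tripropyl- and methoxy-substituted derivative modelled on desmosdumotin C, a natural product. The dose equals the median effective dose that the submitters give for the compound in CL1-5. Each group was 1 culture on 1 Affymetrix U133 Plus 2.0 array, so none of the differences could be tested over replicates. The design asked which transcripts differ between treated and control cells.

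A CDK is inactive until a cyclin binds it, and the cyclin decides when and on which substrates the kinase acts. D-type cyclins with CDK4 or CDK6 act in G1, cyclin E with CDK2 at the start of DNA synthesis, cyclin A with CDK2 and then CDK1 through S phase and G2, and cyclin B with CDK1 in mitosis. The kinases WEE1 and PKMYT1 hold CDK1 inactive by phosphorylation, the CDC25 phosphatases remove that phosphate, and the CIP/KIP and INK4 proteins block the kinases by binding. Other family members, such as CDK7, CDK8, CDK9, CDK12 and CDK13, phosphorylate RNA polymerase II and serve transcription. RNA of a whole culture cannot tell a larger share of cells in S, G2 or M phase from more transcript per cell in the same phase.

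Levels are intensities given as multiples of the array median. Values under 8 (log2 3) were raised to 8 before a difference was taken, and a gene with at least 1 array at or above 8 counted as measured. A gene is represented by its brightest probe set, and all differences are analogue 3 minus DMSO on the log2 scale. Where 1 array lay under 8, the fold is a lower bound and is written as "at least". Of the 49 genes, 43 were measured, against 8523 of all genes. The spread between different probe sets of the same gene gives an SD of 0.23 on the log2 scale for 1 probe set, over 2874 genes, but it says nothing of the error between cultures, RNA preparations or hybridisations.

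The cell cycle cyclins and CDKs were higher with analogue 3, and the transcriptional cyclins and CDKs lay around 0. Of the 3 measured CDK inhibitors, CDKN1A was lower and CDKN1B differed by -0.17, less than the probe set SD. CDKN1C counted as measured only through its DMSO array, which fixed its direction as lower. Over all members, 11 of 43 (25.6%) were at least 2-fold higher, where 3.74% of all measured genes were. CDKN1A was the 1 member at least 2-fold lower, where 3.92% of all measured genes were. The median difference was 1.19 over 12 cell cycle cyclins and CDKs, 1.11 over 8 genes of the CDC25, WEE1, CKS and CDKN3 group, 0.00 over 12 transcriptional genes, -0.22 over 3 inhibitors and -0.15 over 8 other cyclins and CDKs. Over all measured genes the median was -0.05, with 90% of genes between -0.92 and 0.86. With a floor of log2 5, CCNE2, CCNF, CDC25A, CDC25C and CDKN1A were no longer past 2-fold. Of 33 members, 7 were then at least 2-fold higher, where 3.47% of all measured genes were. With the median over all probe sets of a gene, dim ones included, the cell cycle median was 0.59 over 7 genes and 5 members were at least 2-fold higher.

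**Figure D1:**
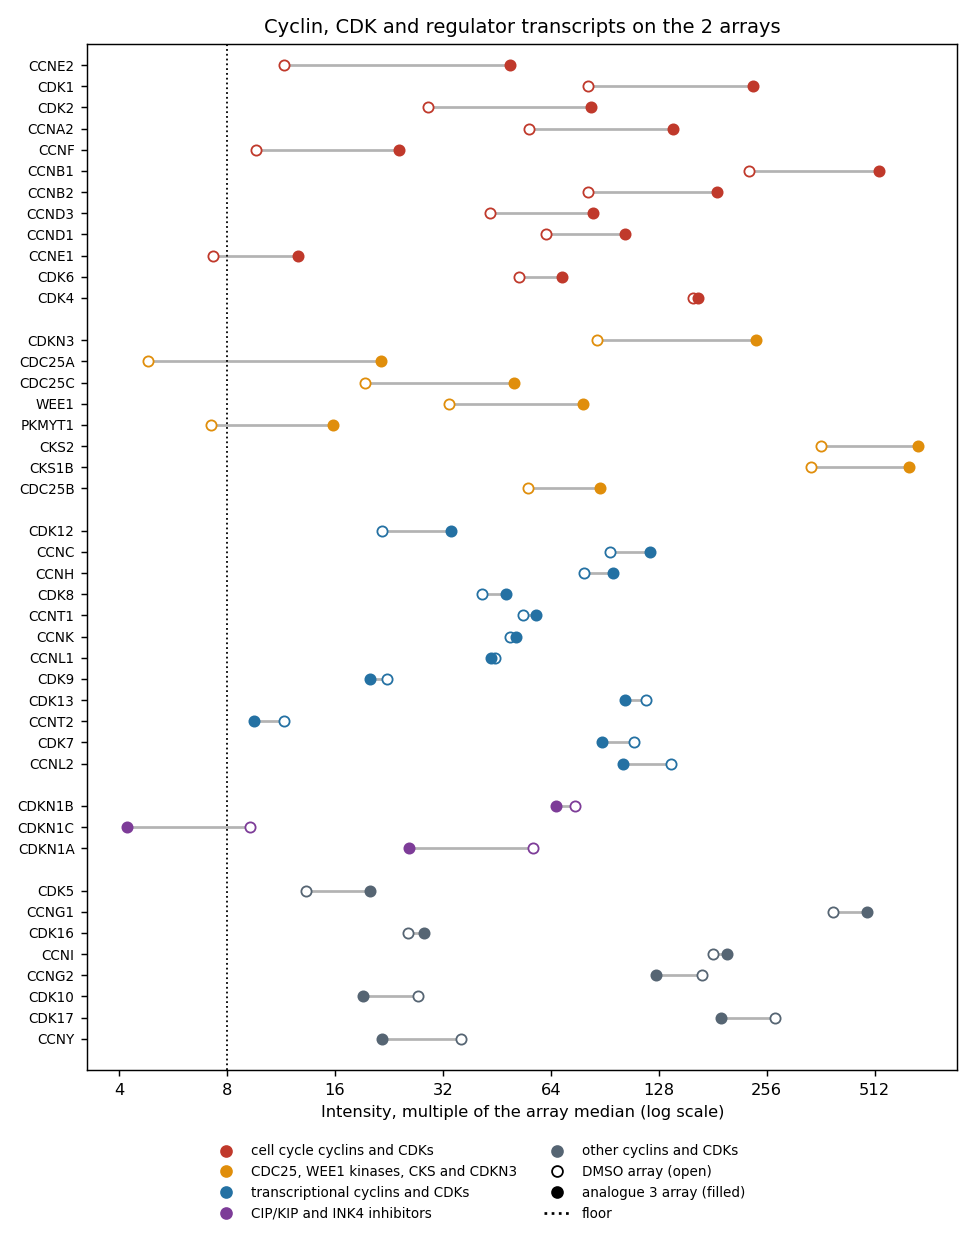
Intensity of each measured member on the 2 arrays, as a multiple of the array median on a log axis, with DMSO as open and analogue 3 as filled circles, the floor of 8 dotted, and genes coloured by group and ordered by difference. In the cell cycle group and the CDC25, WEE1, CKS and CDKN3 group every filled circle lies to the right of its open circle, from CCNE2 (49.3 against 11.5) to CDK4 (165 against 159.8), while the 3 inhibitors lie the other way.

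Of the 12 measured cell cycle cyclins and CDKs, 7 (58.3%) were at least 2-fold higher, where 3.74% of all measured genes were. The 6 of these described first, from S phase, G2 and mitosis, were not a list of their own. The remaining one, CCNE2, follows below. CDK1, the kinase that drives mitosis, had an intensity of 235 with analogue 3 and 81.4 with DMSO, which is 2.89-fold higher (log2 1.53). Its next 2 probe sets differed by 1.49 and 1.64, so its 3 bright probe sets lay within 0.14 of each other. CDK2, the kinase of the G1/S transition and S phase, was 83.0 against 29.0, or 2.87-fold higher. The array with analogue 3 was thus the higher one by nearly the same factor for both kinases.

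CCNA2, the cyclin of S phase and G2, measured 139.9 against 55.6 with DMSO, or 2.51-fold higher. Its second probe set measured 90.7 and 24.4 and differed more, by 1.89 on the log2 scale against 1.33. CCNB1, the main mitotic cyclin, was 526 against 229, or 2.30-fold higher. Its second probe set, at 135 and 76.8, differed by 0.82, so CCNB1 passed 2-fold in 1 of its 2 probe sets. CCNB2, the second B-type cyclin, was 186 against 81.4, or 2.28-fold higher. CCNF, a cyclin that binds no CDK and instead serves a ubiquitin ligase in G2, was 24.1 against 9.62, or 2.51-fold higher. Among measured genes ordered by difference from the highest, CDK1 stood at place 85, CDK2 at 89, CCNA2 at 151 and CCNB2 at 219 of 8523.

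The promoters of these genes are shown because B-type cyclins and CDK1 are textbook cases of promoters read late in the cell cycle, through CCAAT boxes bound by the factor NF-Y and through the cell cycle genes homology region (CHR) bound by the DREAM and MuvB complexes. E2F sites mark genes of the G1/S transition. Each window runs from 250 bases before to 50 bases after a start of transcription annotated in RefSeq, written 5′ to 3′ on the strand of the gene in GRCh38.p14. Capitals mark every match, on either strand, to the CCAAT box (CCAAT), the CHR (TTTGAA or TTCGAA) or an E2F motif (TTTCCCGC, TTTCGCGC, TTTGCCGC or TTTGGCGC). CDK1 is at chr10:60778228-60778527 (plus strand, 1 of its 2 windows), CCNB1 at chr5:69166900-69167199 (plus), CCNB2 at chr15:59104896-59105195 (plus), and CKS2, which encodes a small CDK-binding subunit, at chr9:89310945-89311244 (plus). CDK4 at chr12:57752261-57752560 (minus) and CDKN1A at chr6:36678464-36678763 (plus) are set beside them as a kinase that hardly differed and an inhibitor that was lower.
CDK1: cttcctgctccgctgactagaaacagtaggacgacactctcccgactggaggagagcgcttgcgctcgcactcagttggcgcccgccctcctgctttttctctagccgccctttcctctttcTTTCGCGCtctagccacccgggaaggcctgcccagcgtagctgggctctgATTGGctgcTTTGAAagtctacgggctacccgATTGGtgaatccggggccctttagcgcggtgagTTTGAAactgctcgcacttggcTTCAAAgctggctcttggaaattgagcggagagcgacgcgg
CCNB1: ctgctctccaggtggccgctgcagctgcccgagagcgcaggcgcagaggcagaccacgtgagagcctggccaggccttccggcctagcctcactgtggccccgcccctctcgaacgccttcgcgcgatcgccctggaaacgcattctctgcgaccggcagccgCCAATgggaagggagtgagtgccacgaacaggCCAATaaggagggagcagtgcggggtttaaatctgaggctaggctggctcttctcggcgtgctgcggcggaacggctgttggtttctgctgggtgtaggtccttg
CCNB2: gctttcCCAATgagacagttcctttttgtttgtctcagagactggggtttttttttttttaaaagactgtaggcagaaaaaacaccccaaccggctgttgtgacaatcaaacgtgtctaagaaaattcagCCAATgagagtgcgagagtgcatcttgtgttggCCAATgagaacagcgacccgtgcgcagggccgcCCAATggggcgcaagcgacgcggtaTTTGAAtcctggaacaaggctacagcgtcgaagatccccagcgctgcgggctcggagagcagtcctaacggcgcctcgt
CKS2: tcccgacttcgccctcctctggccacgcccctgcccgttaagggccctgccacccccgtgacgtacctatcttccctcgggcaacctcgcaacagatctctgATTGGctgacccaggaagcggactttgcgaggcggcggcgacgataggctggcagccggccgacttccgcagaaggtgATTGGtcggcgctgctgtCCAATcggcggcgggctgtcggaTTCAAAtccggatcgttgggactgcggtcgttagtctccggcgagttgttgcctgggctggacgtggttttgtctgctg
CDK4: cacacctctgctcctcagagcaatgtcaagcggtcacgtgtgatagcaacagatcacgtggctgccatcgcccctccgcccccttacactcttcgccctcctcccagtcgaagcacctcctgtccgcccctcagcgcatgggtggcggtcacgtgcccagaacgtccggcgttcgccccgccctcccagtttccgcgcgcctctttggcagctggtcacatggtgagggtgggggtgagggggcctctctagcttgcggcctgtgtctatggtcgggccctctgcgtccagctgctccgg
CDKN1A: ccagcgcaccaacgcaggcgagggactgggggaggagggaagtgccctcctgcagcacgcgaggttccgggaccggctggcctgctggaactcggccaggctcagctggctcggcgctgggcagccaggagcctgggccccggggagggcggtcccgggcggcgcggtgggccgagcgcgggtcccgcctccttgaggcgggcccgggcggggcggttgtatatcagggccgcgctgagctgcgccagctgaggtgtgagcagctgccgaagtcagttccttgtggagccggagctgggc

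In the CDK1 window the first bases of the CCAAT boxes lay 78 and 46 bases before the start, 32 bases apart, with an E2F match 128 bases before it and CHR matches 69 and 13 bases before it and 9 bases after it. In CCNB1 the boxes lay 87 and 55 bases before the start, also 32 apart, and there was no match to the CHR words searched. Other forms of the CHR were not searched, so the CHR counts cover those words only. In CCNB2 there were 4 boxes, the nearest 3 at 120, 87 and 54 bases with 33 bases between neighbours, and a CHR match at 29 bases. CKS2 had boxes at 148, 70 and 52 bases and a CHR match at 29 bases. The windows of CDK4 and CDKN1A held no match, but they do not stand for all members that differed little or were lower.

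Windows were found for 43 of the 50 genes, 66 windows in all, and some genes have several that overlap. Of the 11 members at least 2-fold higher, 8 had windows, 12 in all, and CCNE2, CDK2 and WEE1 had none. A CCAAT box was in a window of all 8 and of 15 of the 35 other members, among them CDKN1B, CCNL2 and CCNK. A CHR match was in a window of 5 of the 8 and of 5 of the 35. Both a CCAAT box and a CHR match were in 7 of these 12 windows (58.3%), from 5 of the 8 genes. CDC25C counts with 2 overlapping windows that hold the same CHR match. Among the other members both were in 4 of 54 windows (7.41%), from 4 of 35 genes. Over all 35116 windows of that length the share was 6.38%. At least 2 CCAAT boxes were in 7 of those 12 windows, in 13.0% of the windows of other members and in 10.8% of all windows. An E2F match was in 3 of the 12 windows, of CDK1 and CDC25A, and in 3.31% of all windows, and both CDK1 windows hold the same match. A match describes the letters of a window and is no evidence of binding.

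**Figure D2:**
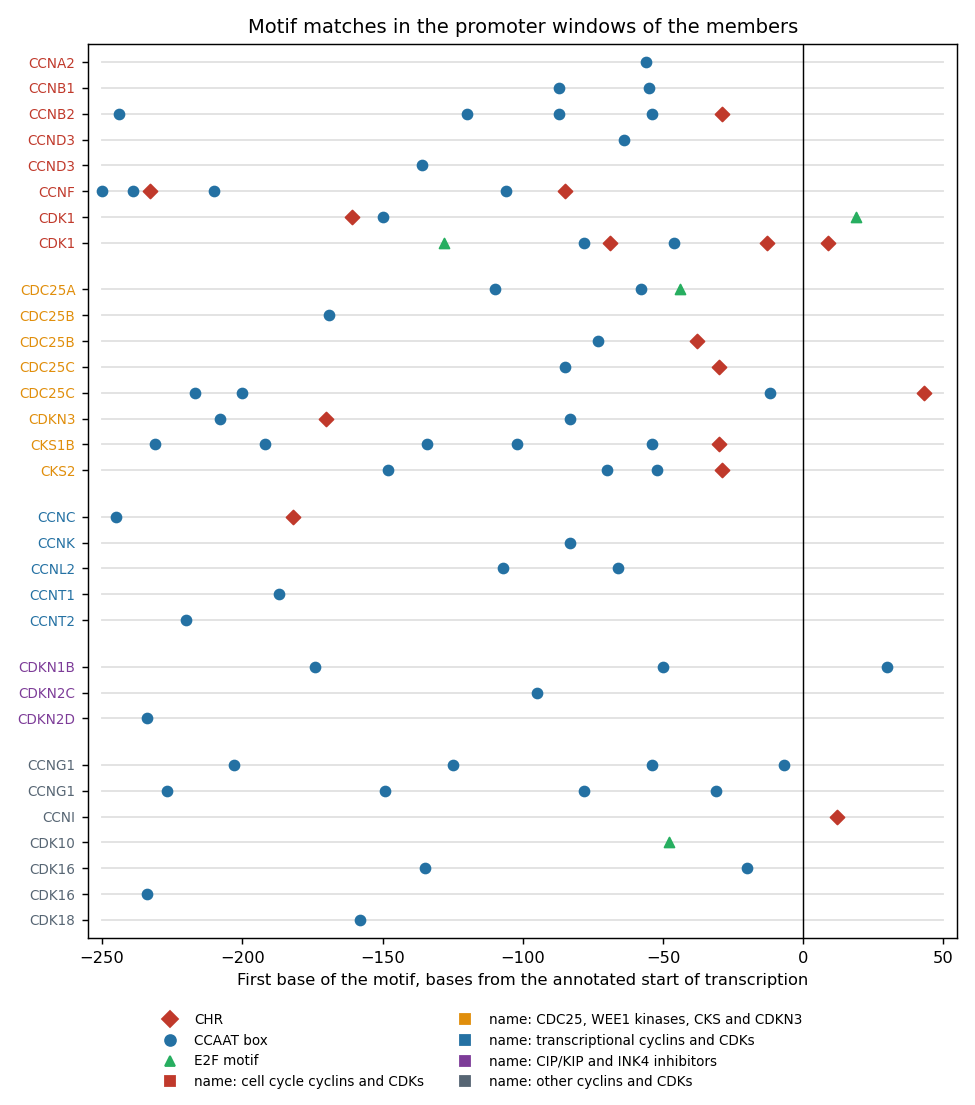
Each line is 1 promoter window that held a match, with the first base of every CHR (diamond), CCAAT (circle) and E2F (triangle) match drawn at its distance in bases from the annotated start, and gene names coloured by group. CHR matches near 30 bases before the start appear in CCNB2, CKS1B, CKS2 and 1 of the CDC25C windows, and CDC25B has one at 38 bases. Others lie elsewhere, as in CCNF at 85 and 233 bases and in CDKN3 at 170 bases. The transcriptional group shows 1 CHR match, in CCNC at 182 bases.

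The cyclins and kinases of G1 and of the entry into S phase were uneven. CCNE2, 1 of the 2 cyclins E that pair with CDK2, was 49.3 with analogue 3 and 11.5 with DMSO, or 4.29-fold higher (log2 2.10), at place 7 of 8523 measured genes. Its floored difference was the largest of the 43 measured members, but with a floor of log2 1 CDC25A was above it, at 2.16, and with a floor of log2 5 CCNE2 fell to 0.62. Its relative CCNE1 was 12.6 against 7.29, at least 1.57-fold higher, and counted as measured only through the analogue 3 array. The second probe set of each lay under the floor on both arrays, at 2.67 and 0.662 for CCNE2.

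CCND3, a D-type cyclin, was 84.0 against 43.2, or 1.94-fold higher, just short of the threshold. CCND1, the D-type cyclin often amplified in carcinomas, was 103 against 62.1, or 1.66-fold higher, with a smaller difference of 0.37 in its second probe set. CCND2 stayed under the floor, with 0.801 and 0.816 in its brightest probe set. Of the kinases that D-type cyclins bind, CDK6 was 68.6 against 52.0, or 1.32-fold higher, and its 3 probe sets above the floor ranged from 0.26 to 0.40. CDK4 was 165 against 159.8, a difference of 0.04 that turned to -0.01 after quantile normalization. Within the group, therefore, CDK1 and CDK2 differed by over 1.5 on the log2 scale and CDK4 and CDK6 by less than 0.5, with no test of that gap.

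CDC25 phosphatases activate CDKs, and all 3 were higher. CDC25A, which acts at the entry into S phase and mitosis, was 21.5 with analogue 3 and 4.82 with DMSO, at least 2.69-fold higher. CDC25C, which acts at the entry into mitosis, was 50.5 against 19.4, or 2.60-fold higher. CDC25B was 87.9 against 55.4, or 1.59-fold higher. Dimmer probe sets of CDC25A and CDC25C lay under the floor on both arrays.

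The opposing kinases were higher as well. WEE1, the nuclear kinase that inhibits CDK1 and CDK2, was 78.8 against 33.2, or 2.37-fold higher. PKMYT1, a membrane-bound kinase that also inhibits CDK1, was 15.8 against 7.22, at least 1.97-fold higher. Its single probe set is of the _x_at kind, which can share sequence with other transcripts. Transcripts of the activating and of the inhibiting enzymes were thus both higher on the same array.

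CKS1B and CKS2 encode small subunits that dock CDKs on phosphorylated substrates. CKS1B was 637 with analogue 3 and 341 with DMSO, and CKS2 was 676 against 363. The 2 genes were 1.87- and 1.86-fold higher, or 0.90 on the log2 scale in both. CDKN3, a phosphatase that takes an activating phosphate from CDKs, was 239.5 against 85.9, or 2.79-fold higher. Its second probe set, at 191 and 68.7, also differed by 1.48. All 8 genes of the CDC25, WEE1, CKS and CDKN3 group were higher, where 44.5% of all measured genes lay above 0. At least 2-fold higher were 4 of the 8, where 3.74% of all measured genes were. CDC25A and PKMYT1 counted as measured only through the analogue 3 array, so their direction followed from that rule.

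The inhibitors that act by binding were few, and all 3 measured ones were lower, where 55.5% of all measured genes lay below 0. CDKN1A, which encodes p21, an inhibitor of CDK2 and CDK1 that p53 induces, was 25.8 with analogue 3 and 57.0 with DMSO, or 2.21-fold lower (log2 -1.14). It stood at place 229 from the lowest of 8523 genes and has 1 probe set, of the _s_at kind. With a floor of log2 5 its difference was -0.83, under 2-fold. CDKN1B, which encodes p27, was 66.2 against 74.7, a difference of -0.17 that is under the probe set SD of 0.23. CDKN1C, which encodes p57, was 4.20 against 9.29, at least 1.16-fold lower. It counted as measured only because its DMSO array reached the floor, so its direction followed from that rule. Its other 4 probe sets lay under the floor on both arrays, 3 of them lower with analogue 3 at 3.45 to 4.56 against 6.15 to 6.89.

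The INK4 genes, whose products block CDK4 and CDK6, gave little signal. CDKN2A reached 2.46 and 1.68, both under the floor, in its brightest probe set. CDKN2B measured 0.240 and 0.242, and CDKN2D 5.20 and 4.58. No fold is given for these 3 genes. The statement that inhibitors were lower therefore rests mainly on CDKN1A, the 1 of 3 measured CIP/KIP genes with a floored difference past 2-fold.

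**Figure D3:**
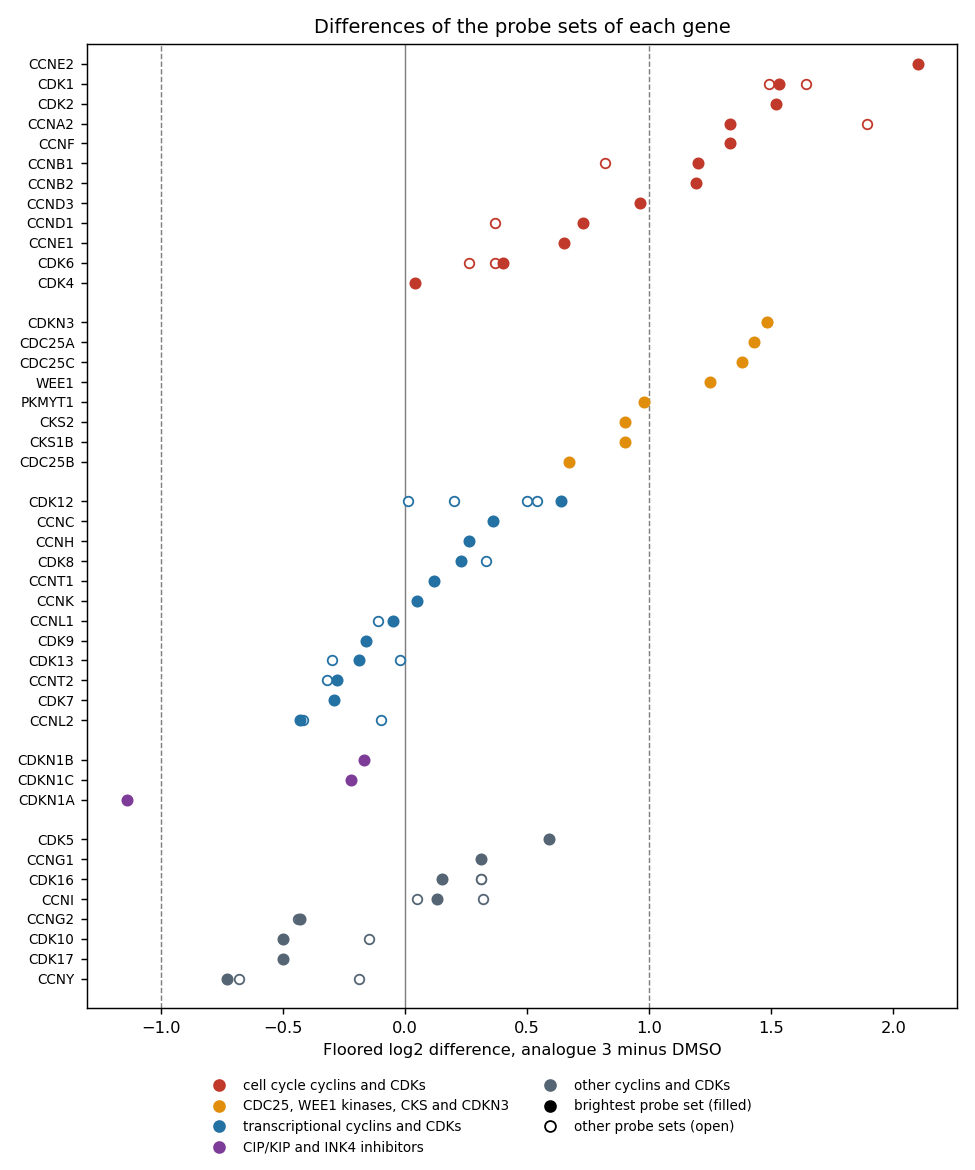
Floored log2 difference, analogue 3 minus DMSO, of every probe set that reached the floor on at least 1 array, with the brightest probe set of each gene filled and others open, and dashed lines at 2-fold. All probe sets of CDK1, CCNA2 and CDKN3 lie beyond the right dashed line, those of CCNB1 lie on both sides of it (1.20 and 0.82), and CDKN1A lies beyond the left one.

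Agreement between probe sets could be read for 17 members that had several probe sets above the floor. In all 17 the probe sets had the same sign. The range between them had a median of 0.27 and was widest for CDK12 (0.63), CCNA2 (0.56) and CCNY (0.54). Of the 43 measured members, 15 rest on a probe set ending in _s_at and 3 on one ending in _x_at.

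The transcriptional cyclins and CDKs lay around 0, with 6 genes higher, 6 lower and none of the 12 past 2-fold. Of all measured genes only 3.74% were at least 2-fold higher and 3.92% lower, so a count of none is near the general share. CDK12, which with CCNK phosphorylates elongating RNA polymerase II, differed most, at 33.8 with analogue 3 and 21.7 with DMSO (log2 0.64). Its other 4 probe sets above the floor differed by 0.01 to 0.54, so the brightest gave the largest value. Its cyclin CCNK was 51.0 against 49.2 (0.05), and its relative CDK13 was 103 against 118 (-0.19).

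The remaining genes of this group differed by less than 0.5. CDK7 and its cyclin CCNH form the kinase of the initiation factor TFIIH, which also activates the cell cycle CDKs. CDK7 was 89.1 against 109 (-0.29), and CCNH was 95.4 against 79.4 (0.26). CDK8 and CCNC belong to the Mediator complex. CDK8 was 48.1 against 41.0 (0.23), and CCNC was 121 against 93.8 (0.36).

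CDK9 and cyclins T form P-TEFb, which releases paused polymerase. CDK9 was 20.0 against 22.4 (-0.16), CCNT1 was 58.1 against 53.4 (0.12), and CCNT2 was 9.51 against 11.5 (-0.28). The L-type cyclins take part in splicing. CCNL1 was 43.5 against 44.8 (-0.05, which turned to 0.04 after removal of the trend on level), and CCNL2 was 102 against 138 (-0.43). Of all measured genes 77.5% differed by under 1.5-fold, and CDK12 was the 1 gene of these 12 beyond that.

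Among the 8 measured other cyclins and CDKs, 4 were higher and 4 lower. None was past 2-fold, which is near the 3.74% higher and 3.92% lower of all measured genes. CCNY, a membrane-bound cyclin that partners CDK14 and CDK16, was 21.6 against 35.9, or 1.66-fold lower, and its next 2 probe sets differed by -0.68 and -0.19. CDK16 was 28.4 against 25.6 (0.15), and CDK14 did not reach the floor, at 6.65 and 6.68. CDK17, a relative of CDK16, was 191 against 270.4 (-0.50), while the third relative, CDK18, was under the floor at 2.93 and 4.63.

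CDK5, which is best known from neurons, was 20.0 against 13.3 (0.59). CDK10 was 19.2 against 27.2 (-0.50), and -0.15 in its second probe set. CCNG1, a cyclin gene induced by p53, was 486 against 393 (0.31), and CCNG2, which is linked to cell cycle exit, was 126 against 169 (-0.43). CCNI was 198 against 181 (0.13). The p53-induced genes CCNG1 and CDKN1A thus lay on opposite sides of 0.

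**Figure D4:**
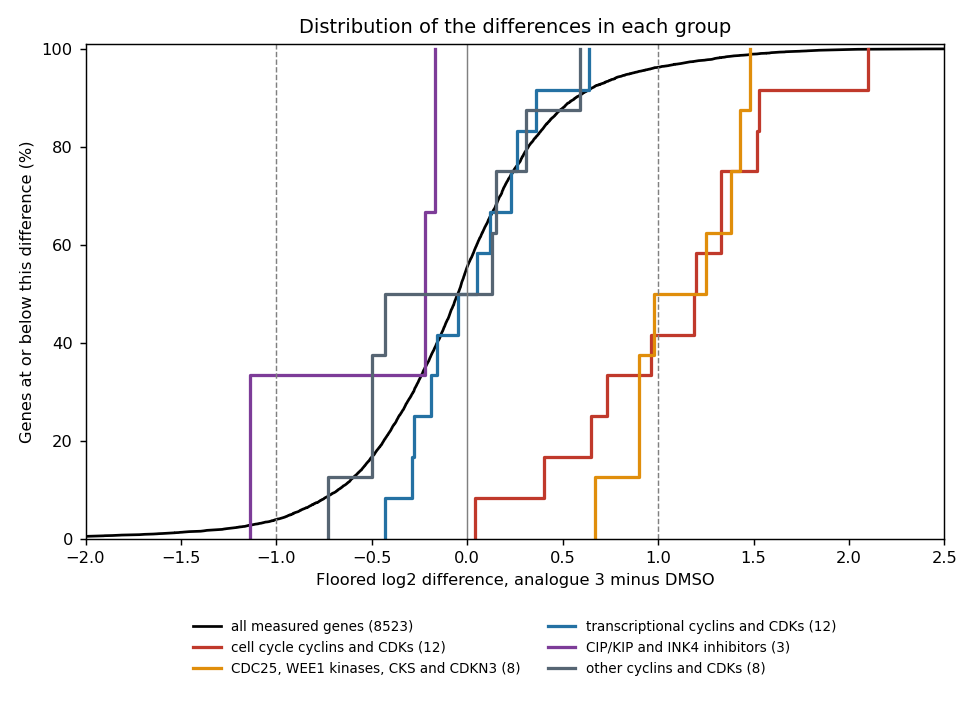
Share of genes at or below each floored log2 difference, for all 8523 measured genes (black) and for each group of members, with the number of measured genes in the legend and dashed lines at 2-fold. The cell cycle group and the CDC25, WEE1, CKS and CDKN3 group run to the right of all genes except at their upper ends. They end there at 2.10 and 1.48, while some measured genes lie higher. The transcriptional group runs close to the black line, between -0.43 and 0.64.

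**Figure D5:**
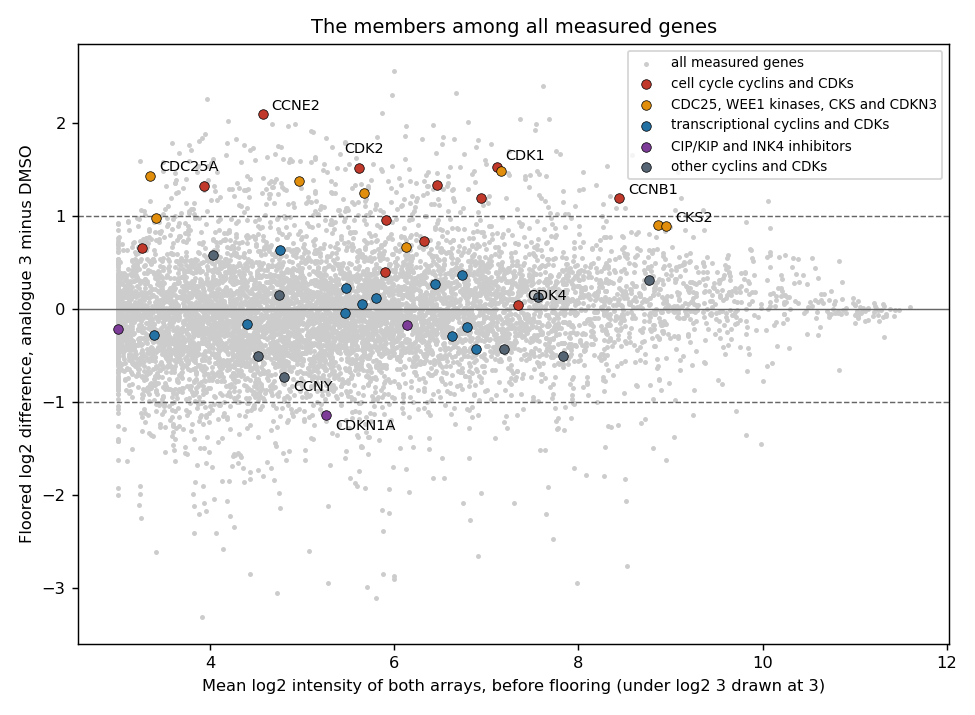
Floored log2 difference against mean log2 intensity for all measured genes (grey) and the members (coloured by group), with dashed lines at 2-fold and some members named. Members at least 2-fold higher occur from low levels (CDC25A, CCNF) to high ones (CCNB1), and CDKN1A lies just beyond the lower dashed line.

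Genes that act on these kinases were set beside them from lists fixed by name. The RB, E2F and DREAM list holds the repressors and factors that the CDKs control. In it 3 of 14 measured genes were at least 2-fold higher, where 3.74% of all measured genes were. None was at least 2-fold lower, where 3.92% of all measured genes were. Below 0 lay 6 of the 14, and the median was 0.27. The atypical E2F repressor E2F8 was 51.0 against 12.8 (3.99-fold higher), the mitotic factor FOXM1 was 61.6 against 20.2 (3.06-fold), and MYBL2, a partner of MuvB, was 28.1 against 7.74 (at least 3.51-fold). E2F7 was 32.4 against 16.6, or 1.95-fold higher.

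Ubiquitin ligases that destroy cyclins and inhibitors had 4 of 23 measured genes at least 2-fold higher, where 3.74% of all measured genes were. None was at least 2-fold lower, where 3.92% of all measured genes were. Below 0 lay 4 of the 23, and the median was 0.22. SKP2, the receptor that sends p27 for destruction with the help of CKS1B, was 129 against 49.4 (2.60-fold higher). DTL, a receptor that targets p21 during S phase, was 82.3 against 23.8 (3.46-fold higher). CDC20 and UBE2C, which act with the anaphase-promoting complex on cyclin B, were 2.12- and 2.29-fold higher. CDKN1A and DTL thus differed in opposite directions on the same arrays.

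Of 5 measured checkpoint genes, CHEK1, the kinase that restrains CDC25A, was 50.6 against 24.4 (2.07-fold higher), CHEK2 was 31.5 against 17.3 (1.82-fold higher), CLSPN was at least 1.90-fold higher, and ATM was 23.3 against 34.5 (1.48-fold lower). Of 9 measured p53 targets other than CDKN1A, none had a floored difference past 2-fold, with a median of -0.19. That count is near the shares of all measured genes, 3.74% higher and 3.92% lower. GADD45A was 456 against 665 (-0.54), BAX was 31.4 against 44.5 (-0.50), TP53I3 differed by -0.31, and DDB2, at 13.0 against 4.54, was at least 1.62-fold higher (log2 1.51 with a floor of log2 1, past 2-fold). CDKN1A, at -1.14, lay below GADD45A, the lowest of the 9.

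Partners of the transcriptional CDKs had a median of -0.02 over 13 measured genes, 7 of them below 0. None was at least 2-fold higher and 1 was at least 2-fold lower, where 3.74% and 3.92% of all measured genes were. That gene was GTF2H1, a TFIIH subunit, at 43.3 against 88.0 (-1.02, and -0.42 as the median of its probe sets). AFF4 differed by -0.54, MED13 by -0.51 and POLR2A by 0.69. Cyclin and CDK family genes outside the 50 had a median of 0.03 over 10 measured genes. None of the 10 was past 2-fold, near the 3.74% higher and 3.92% lower of all measured genes. Among them were CDK2AP1 (0.78), CDK5RAP2 (0.72), CDK5RAP1 (0.48) and CDK19 (-0.38).

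Across the 2 arrays, the share of probe sets at or above the floor was 26.0% with analogue 3 and 26.8% with DMSO, and log2 levels correlated with r = 0.94 across the measured genes, which are not independent replicates. The 3′ control probe set exceeded the 5′ one by factors of 1.18 and 1.21 for GAPDH and of 10.0 and 11.8 for ACTB, in the same order, and the part of this in the differences was not tested. The epithelial keratin KRT18 was 458 against 461 and KRT8 was 77.8 against 42.3, while KRT19, EPCAM, CDH1 and all 5 lung lineage markers were under the floor on both arrays. All leukocyte and fibroblast markers were under the floor, and of the endothelial markers only PECAM1 reached it, at 15.7 and 11.3.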

How the data were processed

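Total RNA of 2 cultures was hybridised as biotin-labelled cRNA to 1 array each. The intensity values the authors deposited are on a linear scale, and the submitters' processing notes name GCRMA, a background correction from probe sequence with quantile normalization. Its version is not given in the sources used here. Both columns have a median of 1, which points to a scaling step that no label states. GEO's platform annotation names 1 gene for 41091 probe sets, and 41037 of these matched RefSeq by gene number. The floor of log2 3, the 2-fold threshold and the choice of the brightest probe set are described above. The members, lists, floor and motifs were chosen with earlier results of these data known. All members are named, with up to 4 genes of each further list that had the largest differences. Alternatives were floors of log2 1 and 5 and no floor, median centring, quantile normalization, loess removal (span 0.3), the median of probe sets, omission of _s_at and _x_at probe sets, thresholds of 1.5- and 3-fold, and CDKN3 counted among the inhibitors. The procedure was tested on simulated data with noise of the probe set SD and differences planted in genes well above the floor. That test cannot speak to error between cultures or to genes near the floor. Python 3.11.15, pandas 2.3.3 and statsmodels 0.14.6 were used. With 1 array per group, the number of arrays limits the precision.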

Additional observations from a re-analysis of the deposited data

How the results depend on the processing

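The direction of no member past 2-fold turned under any alternative in which it was measured. Over 43 measured members, 290 of 309 member values under the alternatives moved by less than the probe set SD of 0.23 and 19 moved by more. Members no longer measured under an alternative are not in this count, and with the median of probe sets 29 were measured. A lower floor cannot change a gene at or above 8 on both arrays, so part of this agreement was fixed in advance. With a floor of log2 5, 7 of 33 members were at least 2-fold higher (CCNE2, CCNF, CDC25A and CDC25C were not) and 0 lower. Of all genes measured with that floor, 3.47% were higher and 2.67% lower. The inhibitor median was then -0.50 over 2 genes. With a gene taken as the median over its probe sets, which draws in dim probe sets, 5 members were higher, and the medians were 0.59 (cell cycle group, 7 genes), 0.26 (transcriptional), -0.66 (inhibitors) and 0.05 (other cyclins and CDKs, from -0.15). Without _s_at and _x_at probe sets, 0 of 32 members were at least 2-fold lower, where 4.16% of all measured genes were. The medians were then 1.43 (CDC25, WEE1, CKS and CDKN3 group, 3 genes) and -0.50 (other cyclins and CDKs). With a floor of log2 1 and with no floor, 2 members were lower, CDKN1A and CDKN1C, of 47 and 49. The shares over all genes were 5.25% and 3.66%. The threshold of 1.5-fold gave 20 of 43 members higher and 2 lower, where 9.60% and 12.9% of all measured genes were. That of 3-fold gave 1 (CCNE2) and 0, where 0.845% and 1.06% of all measured genes were. No paired analysis was possible because each group has 1 array, and for the same reason no replicate could be left out.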

Other observations

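Of the 131 probe sets of the members, 61 lay under the floor on both arrays. Several dim probe sets of CCNB2 and CDK12 ran against the brightest one of the gene: for CCNB2 they measured 1.01 against 1.24 and 0.581 against 1.07, and for CDK12 1.84 against 2.51, 1.37 against 1.65 and 0.647 against 1.05, with analogue 3 named first. A dim probe set of CDK1 measured 4.86 against 1.95, and one of CDK2 measured 4.94 against 1.95, in the direction of the brighter ones. These were singled out after their values were seen.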
